A study of Homo sapiens with 8 samples.

Results

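Interferon-stimulated genes are the genes that cells switch on when they sense interferon, a secreted antiviral signal. A fixed list of 47 names was looked up in the gene count table of an RNA sequencing experiment and gave 46 of its 60708 genes, since RIGI and DDX58 name the same gene, which the table calls DDX58. Membership goes by name and not by a measured value, though the list was chosen with earlier results of these data known. Of the 46 genes, 45 had enough counts to be tested. The remaining gene, HERC5, had at most 6 counts in any library.

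RNA came from HS578T, an established line of human breast carcinoma cells, as 4 groups with 2 libraries each, which the design text calls biological replicates. The groups were HSF2oe with TGF-β1, HSF2oe control, Mock with TGF-β1 and Mock control. HSF2oe cells received 25 µg of plasmid encoding HSF2, a heat shock transcription factor, and Mock cells the same mass of plasmid encoding green fluorescent protein (GFP). After 24 h, the medium was changed for 24 h to assay medium holding 10 ng/ml TGF-β1 (TGF-β groups) or to the assay medium alone (control groups). All groups therefore carried a transfected plasmid, no untransfected cells are compared here, and the effect of HSF2 cannot be told apart from other differences between the plasmids. By its title the series is about HSF2 in the proliferation and invasion of breast cancer. Libraries are called by group and replicate number, as in HSF2oe control 1. Groups follow the titles and the design text; a treatment entry in the labels contradicts both, with DMSO on all Mock and TGF-β1 on all HSF2oe libraries.

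Total gene counts ran from 17427645 to 34336107 per library, and interferon-stimulated genes summed to 457 to 744 CPM (counts scaled to a common library total). HSF2 stood at 489 to 937 CPM after TMM scaling in the 4 HSF2oe libraries and at 5.4 to 8.36 CPM in the 4 Mock libraries. In HSF2oe cells these reads come from the plasmid and the cell's own gene alike, and they were higher in replicate 1 of both HSF2oe groups. All 6 mesenchymal markers (VIM, FN1, CDH2, CD44, SPARC and AXL) were at or above 463 CPM in every library. The epithelial genes EPCAM and KRT19 stayed at or below 0.193 CPM and CDH1 at or below 1.17 CPM, while KRT8 and KRT18 were present. Of the blood markers, CD3E and HBB had no count. The summed level of the 5 blood markers, mostly CD14, was 0.591 to 2.08 CPM in HSF2oe libraries and 2.22 to 4.04 CPM in Mock libraries. The 4 luminal markers summed to 15.3 to 18.4 CPM in HSF2oe libraries and 9.63 to 10.9 CPM in Mock libraries, with PGR at 0. The summed epithelial markers, mostly KRT8 and KRT18, were 195 to 235 CPM in HSF2oe and 265 to 297 CPM in Mock libraries. The 3 endothelial markers summed to 1.54 to 1.74 CPM in HSF2oe TGF-β, against 3.22 to 4.47 CPM in HSF2oe control, and to 1.82 to 2.95 CPM in Mock TGF-β, against 3.15 to 3.94 CPM in Mock control. The 6 mesenchymal markers, mostly FN1, summed to 50900 to 53900 CPM in HSF2oe TGF-β, against 36500 to 37100 CPM in HSF2oe control. In Mock TGF-β they summed to 65700 to 73800 CPM, against 37600 to 43400 CPM in Mock control. VIM, FN1, CDH2 and SPARC were higher in the TGF-β libraries than in the controls of their transfection. For CD44 and AXL those libraries overlapped. The part of these shifts in the results was not tested. In such bulk samples, fewer cells that express a gene and less RNA per cell cannot be told apart.

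Type I interferons bind the IFNAR1-IFNAR2 receptor, whose kinases JAK1 and TYK2 activate transcription factors of the STAT family. STAT2 joins IRF9 in a complex that binds interferon-stimulated response elements, built around paired GAAA repeats, in front of antiviral genes. Interferon gamma acts through its own receptor and induces IRF1, a further activator. The gene products sense viral RNA, degrade it, block translation, modify proteins with ISG15 or hinder virus entry, and many carcinoma cell lines transcribe some of these genes without added interferon.

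Promoter sequences show the element that many of these genes share. RefSeq promoter windows, 250 bases before to 50 after the gene start (GRCh38.p14), were at hand for 36 of the 46 genes, 46 windows in all, since 8 genes have more than 1 start. The motif searched on both strands was GAAA, any 2 bases and GAAA again, 10 letters in all, with overlapping matches allowed. Of the 36 genes, 26 held it in at least 1 window (72.2%, exact 95% interval 54.8% to 85.8%), as did 1195 of all 27305 genes (4.38%). Counted by window, 30 of 46 held it (65.2%), against 1255 of 35116 for all genes (3.57%). MX1, PARP9 and RSAD2 each have a window with a match and another start whose window has none. The 10 genes with no window here are DHX58, GBP2, IFIT2, IFITM2, IRF7, MX2, OAS2, OASL, TRIM22 and USP18. Among genes past the test threshold for higher counts in HSF2oe cells in either treatment, 11 of 12 with a window held the motif in any window, OAS1 being the exception. Among genes past it for lower counts with TGF-β in either transfection, 8 of 12 held it, and among those lower in HSF2oe cells 2 of 5. Of the genes that passed no test, 6 of 9 held it.

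Windows of 8 genes are printed. ISG15, IFI6, IFIT1 and OAS3 were higher with HSF2oe in at least 1 treatment, PARP14 and PARP9 were lower with TGF-β in both transfections, and IFIT3 did both. The last is GBP1, which was lower with HSF2oe and higher with TGF-β in Mock cells. Each reads 5′ to 3′ on the strand of its gene and ends just before the RefSeq gene start, and capitals mark the motif or its reverse complement, TTTC, any 2 bases and TTTC.
ISG15, chr1:1013347-1013496, plus strand: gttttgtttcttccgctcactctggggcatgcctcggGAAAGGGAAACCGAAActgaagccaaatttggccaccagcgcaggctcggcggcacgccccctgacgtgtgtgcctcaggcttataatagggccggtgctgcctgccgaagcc
IFI6, chr1:27672193-27672362, minus strand: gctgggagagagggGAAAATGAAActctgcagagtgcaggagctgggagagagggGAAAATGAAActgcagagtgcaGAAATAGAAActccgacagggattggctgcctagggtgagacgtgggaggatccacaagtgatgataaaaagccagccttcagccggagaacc
IFIT1, chr10:89392473-89392622, plus strand: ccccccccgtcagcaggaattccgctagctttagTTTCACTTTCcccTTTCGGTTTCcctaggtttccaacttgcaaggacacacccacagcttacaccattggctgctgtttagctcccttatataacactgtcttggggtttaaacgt
IFIT3, chr10:89332379-89332528, plus strand: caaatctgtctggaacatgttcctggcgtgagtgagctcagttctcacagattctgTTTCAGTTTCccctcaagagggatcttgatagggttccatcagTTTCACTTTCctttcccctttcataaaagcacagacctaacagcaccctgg
OAS3, chr12:112938324-112938473, plus strand: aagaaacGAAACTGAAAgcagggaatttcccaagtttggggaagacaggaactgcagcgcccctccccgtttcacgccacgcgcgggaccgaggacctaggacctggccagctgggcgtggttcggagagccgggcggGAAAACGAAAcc
PARP14, chr3:122680779-122680838, plus strand: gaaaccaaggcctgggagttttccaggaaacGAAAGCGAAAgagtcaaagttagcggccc
PARP9, chr3:122564301-122564360, minus strand: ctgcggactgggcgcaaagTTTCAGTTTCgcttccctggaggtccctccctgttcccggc
GBP1, chr1:89065209-89065358, minus strand: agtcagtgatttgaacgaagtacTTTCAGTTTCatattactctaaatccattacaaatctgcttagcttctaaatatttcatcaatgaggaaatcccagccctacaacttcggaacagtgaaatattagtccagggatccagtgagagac
PARP9 and DTX3L, which lie head to head, share a single match at chr3:122564332-122564341. A match says only that the letters are there, not that a factor binds.

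Levels differed widely among the genes. Per kilobase of exon, the highest mean over the 8 libraries was that of IFITM3 (46.1 CPM per kb), followed by IFI6 (36 CPM per kb), ISG15 (17.5 CPM per kb) and STAT2 (9.61 CPM per kb). IFITM3 encodes a membrane protein that blocks virus entry and ISG15 a ubiquitin-like modifier. At the low end, OAS1 averaged 0.0796, MX2 0.0739, CMPK2 0.0625, OASL 0.0484 and HERC5 0.0124 CPM per kb. A library with no count of a gene still allows 3 counts, or 0.0874 to 0.172 CPM before TMM scaling, as counting error alone.

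**Figure D1:**
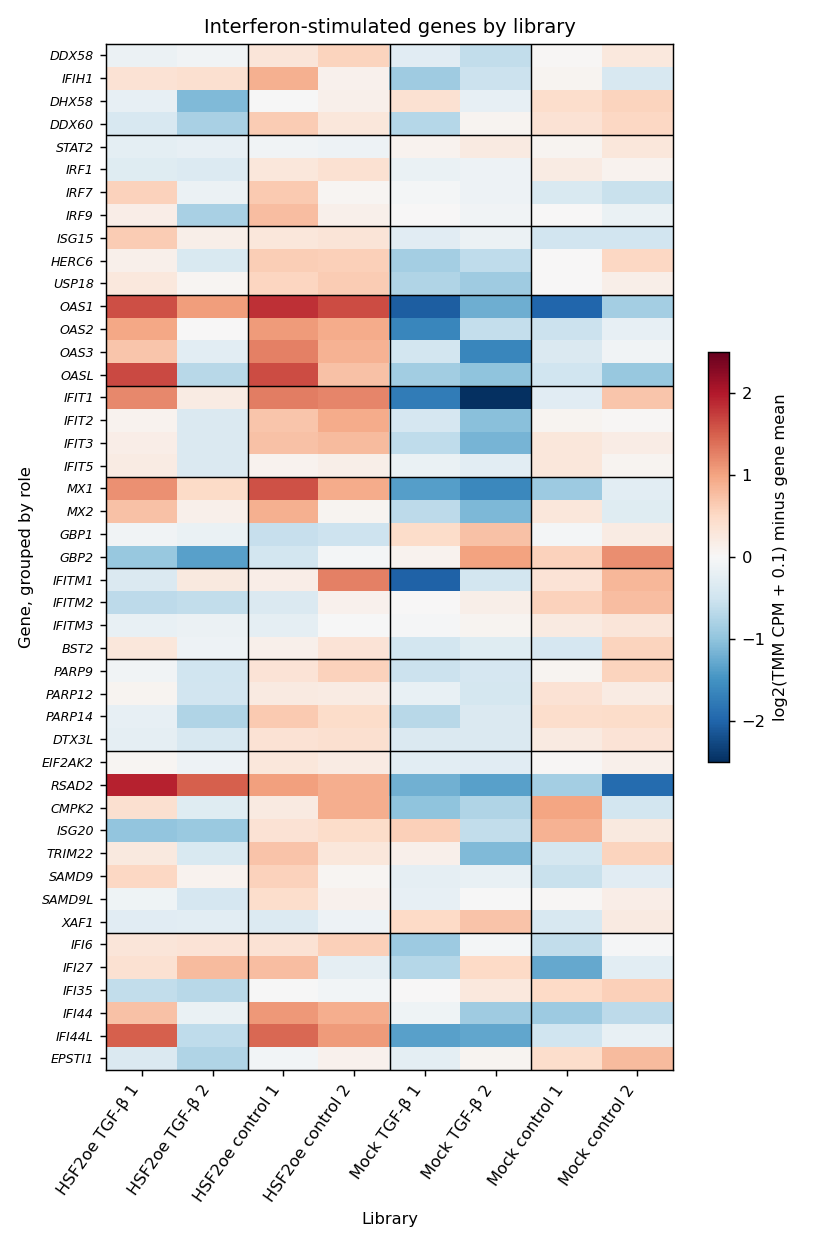
Level of the 45 tested genes (rows, grouped by role, with lines between roles) in each of the 8 libraries (columns), as log2(TMM CPM + 0.1) minus the mean of the gene. Red is above and blue below that mean. OAS1, RSAD2, MX1 and ISG15 are red in all 4 HSF2oe libraries and blue in all 4 Mock libraries. SAMD9, IFI6 and OAS2 lie on the same sides of their means, but some of their libraries are close to the mean and nearly white.

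HSF2oe cells held more RNA of a set of antiviral effectors. The share of the listed genes that was lower in HSF2oe cells was closer to that of all genes. Without TGF-β, 11 of the 45 tested genes were higher and 5 lower in HSF2oe than in Mock cells at an adjusted p below 0.05, that is 24.4% and 11.1% of them. Of all 16008 genes tested, 4.88% were higher and 7.22% lower (12.1% called). With TGF-β, 13 genes (28.9%) were higher and 6 (13.3%) lower, against 9.6% and 11.9% of all genes (21.5% called). The median log2 fold change of the 45 genes was 0.30 without TGF-β and 0.46 with it, against 0 for all genes in both. In these pairs, which share no library, 8 genes were higher in both, or 72.7% of the 11 and 61.5% of the 13 (IFI6, ISG15, MX1, OAS1, OAS2, OAS3, RSAD2 and SAMD9). Of all genes tested, 525 (3.28%) were higher in both, out of 781 higher without TGF-β and 1537 higher with it. GBP1, GBP2, IFI35 and IFITM2 were lower in both (80% of the 5 and 66.7% of the 6). The like count over all genes was 903 (5.64%), out of 1156 lower without TGF-β and 1912 lower with it. Single libraries weighed on the counts: without HSF2oe control 1, Mock control 1 or Mock control 2 the calls without TGF-β numbered 3, 9 and 6 in place of 16, while the share of all genes called was 2.21%, 7.33% and 2.71% in place of 12.1%. Without HSF2oe TGF-β 1 or Mock TGF-β 2, those with TGF-β numbered 7 and 8 in place of 19, and the share of all genes was 9.77% and 8.82% in place of 21.5%. With library totals alone, in place of TMM, the median of all genes was 0.19 with TGF-β and 0.09 without, and the split became 17 higher and 3 lower with TGF-β and 15 and 4 without.

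**Figure D2:**
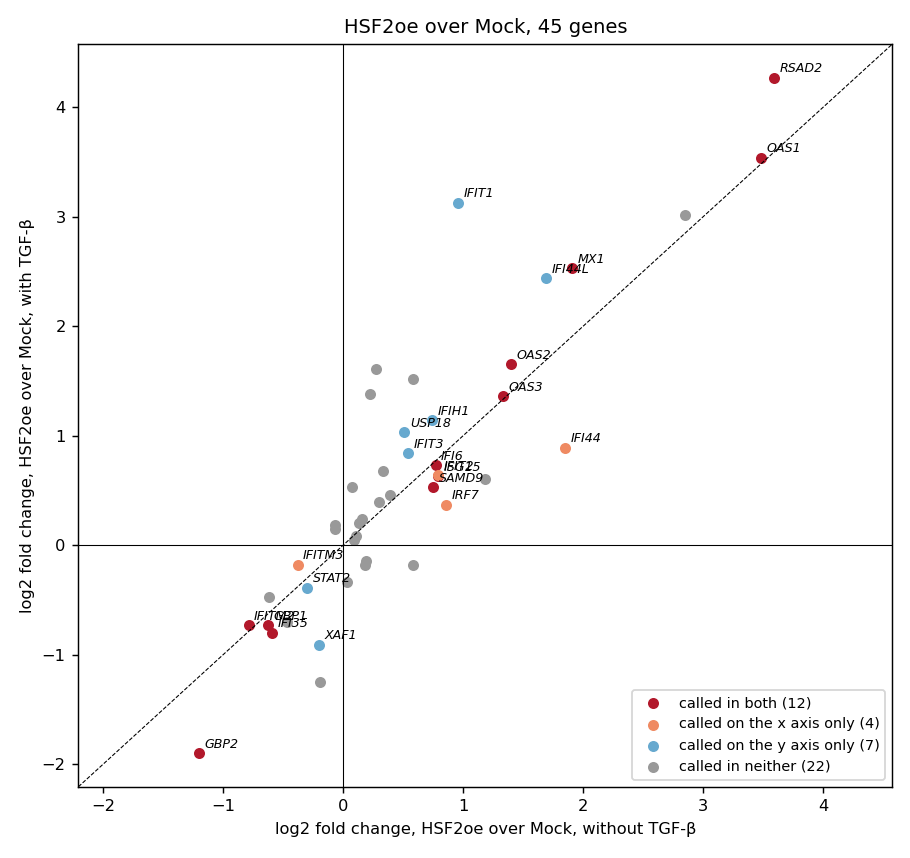
Log2 fold change of HSF2oe over Mock for the 45 tested genes, without TGF-β (x axis) and with it (y axis), with a dashed line of equal change. Colour shows where a gene passed the test. RSAD2 and OAS1 lie at the upper right, GBP2 at the lower left, and IFIT1 above the line, at 0.96 on the x axis and 3.13 on the y axis.

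TGF-β-treated cells held less RNA of several of the genes, the PARP9-DTX3L pair among them. In HSF2oe cells 9 of the 45 genes were lower with TGF-β than without (20%) and none was higher, against 3.82% and 4.45% of all genes (8.26% called). In Mock cells 10 were lower (22.2%) and 1, GBP1, was higher, against 6.5% and 7.32% of all genes (13.8% called). The median log2 fold change was -0.46 in HSF2oe cells and -0.56 in Mock cells, against -0.01 and 0 for all genes, and 41 and 36 of the 45 estimates lay below 0. DTX3L, IFIT3, PARP14 and PARP9 were lower in both, or 44.4% of the 9 and 40% of the 10. Of all genes tested, 414 (2.59%) were lower in both, out of 611 lower in HSF2oe cells and 1040 lower in Mock cells. Such an overlap was thus not particular to the listed genes. None of the 45 was higher in both, as were 3.72% of all genes. In HSF2oe cells the 9 calls became 3 without HSF2oe TGF-β 2 and 4 without HSF2oe control 1. HSF2oe control 2 also weighed, since 6 calls were left without it. The share of all genes called in these 3 fits was 4.08%, 4.05% and 4.79%. In Mock cells the 11 calls became 5 without Mock TGF-β 2, 7 without Mock control 1 and 6 without Mock control 2, with 6.68%, 6.81% and 9.45% of all genes called. TMM factors were 0.857 to 1.01 in the TGF-β libraries and 1.03 to 1.11 in the control libraries, so the scaling moved with the treatment. With library totals alone the median of all genes was -0.17 in HSF2oe and -0.27 in Mock cells, and 14 and 19 of the 45 genes were then lower and none higher.

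**Figure D3:**
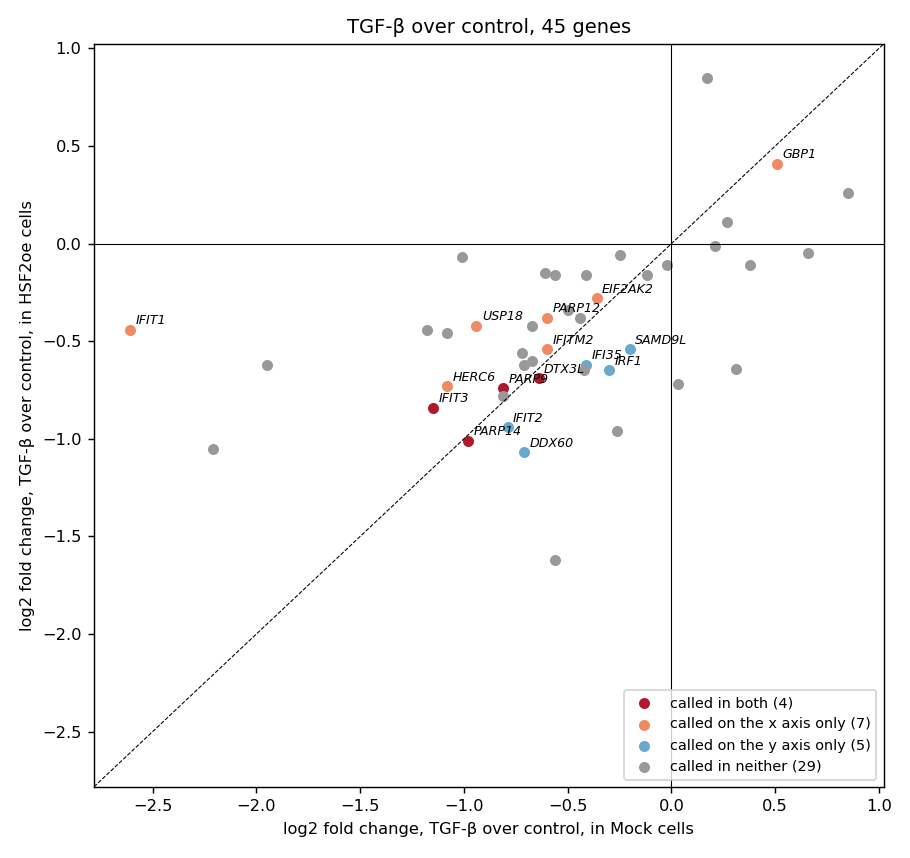
Log2 fold change of TGF-β over control for the 45 tested genes, in Mock cells (x axis) and in HSF2oe cells (y axis), with a dashed line of equal change. Most points lie below 0 on both axes. PARP14, DTX3L, PARP9 and IFIT3 passed the test in both, and IFIT1 lies far to the left, at -2.61 on the x axis and -0.44 on the y axis.

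In what follows, log2 fold changes are given ± standard error, with Benjamini-Hochberg adjusted p-values of edgeR's quasi-likelihood test over all 16008 genes. Each gene's TMM CPM is given in both libraries of each group, replicate 1 first. A call is named as lost where leaving out 1 library ended it; the other library of that group was then assumed to vary like the rest. Calls lost under another scaling, filter or tool are named beside it.

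The OAS family makes short oligoadenylates that switch on the nuclease RNase L, and 3 of its 4 members were higher in HSF2oe cells in both treatments. OAS1 (ENSG00000089127.15, chromosome 12, 112905856 to 112933219, plus strand) had 1.99 and 1.32 CPM in HSF2oe TGF-β, 2.34 and 2.02 CPM in HSF2oe control, 0.0651 and 0.197 CPM in Mock TGF-β and 0.0749 and 0.284 CPM in Mock control. Every HSF2oe library lay above every Mock library. HSF2oe exceeded Mock on the log2 scale by 3.54 ± 0.64 (adjusted p = 0.00194) with TGF-β and 3.48 ± 0.52 (adjusted p = 0.00146) without, and both calls held in every setting that tested the gene. With 5 summed Mock counts with TGF-β and 12 without, the ratio of summed counts was 12.2 with a 95% counting interval of 5.05 to 38.4 with TGF-β, and 11.2 (6.23 to 22.3) without. OAS2 had 4.45 and 2.22 CPM in HSF2oe TGF-β, 4.75 and 4.31 CPM in HSF2oe control, 0.651 and 1.43 CPM in Mock TGF-β and 1.5 and 1.9 CPM in Mock control. Its highest Mock library, at 1.9 CPM, lay below its lowest HSF2oe library, at 2.22 CPM. It was higher by 1.65 ± 0.40 (adjusted p = 0.0103) with TGF-β and 1.40 ± 0.33 (adjusted p = 0.0169) without. With TGF-β, the call was lost without HSF2oe TGF-β 1 (adjusted p = 0.13) or Mock TGF-β 1 (adjusted p = 0.0667). Its estimate without HSF2oe TGF-β 1 was 1.06. Its call without TGF-β was lost without HSF2oe control 1 (adjusted p = 0.115), Mock control 1 (adjusted p = 0.0819) or Mock control 2 (adjusted p = 0.0761). OAS3 had 4.33 and 2.17 CPM in HSF2oe TGF-β, 6.45 and 4.93 CPM in HSF2oe control, 1.89 and 0.787 CPM in Mock TGF-β and 2.02 and 2.47 CPM in Mock control. HSF2oe and Mock libraries did not overlap within a treatment, though HSF2oe TGF-β 2 was below Mock control 2. The differences were 1.36 ± 0.41 (adjusted p = 0.0305) with TGF-β and 1.33 ± 0.33 (adjusted p = 0.0211) without. The call with TGF-β was lost without HSF2oe TGF-β 1 (adjusted p = 0.306) or Mock TGF-β 2 (adjusted p = 0.277). The estimate was 0.77 without HSF2oe TGF-β 1 and 0.81 without Mock TGF-β 2. Leaving out Mock TGF-β 1 gave 2.07. Without TGF-β, the call was lost without HSF2oe control 1 (adjusted p = 0.177), Mock control 1 (adjusted p = 0.0955) or Mock control 2 (adjusted p = 0.0957). OASL, a relative with no such enzyme activity, had at most 27 counts. Its ratio of summed counts was 9.31 (2.35 to 80.5) with TGF-β and 7.62 (3 to 24.8) without, with adjusted p-values of 0.0932 and 0.0703 that missed the threshold. TGF-β changed no OAS gene past the threshold in either transfection.

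RSAD2, also called viperin, makes a chain-terminating nucleotide that stops viral polymerases. RSAD2 (ENSG00000134321.13, chromosome 2, 6865557 to 6898239, plus strand) had 1.34 and 0.981 CPM in HSF2oe TGF-β, 0.674 and 0.62 CPM in HSF2oe control, 0.0651 and 0.0492 CPM in Mock TGF-β and 0.112 and 0 CPM in Mock control. Mock libraries held 0 to 3 counts each, and HSF2oe libraries 20 to 43. The log2 fold change was 4.27 ± 0.89 (adjusted p = 0.00451) with TGF-β and 3.59 ± 0.83 (adjusted p = 0.0148) without, and the ratios of summed counts were 21.2 (5.64 to 179) and 13.4 (4.26 to 67.4). Its call with TGF-β was lost without Mock TGF-β 2 (adjusted p = 0.0584). The call without TGF-β was lost without HSF2oe control 1 (adjusted p = 0.0941) or Mock control 2 (adjusted p = 0.151). Without Mock control 1 the estimate was 7.14, since the lone Mock control library then had no count. CMPK2, which overlaps it head to head on chromosome 2, supplies nucleotides and did not pass the test in any comparison (0.0651 to 0.562 CPM).

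**Figure D4:**
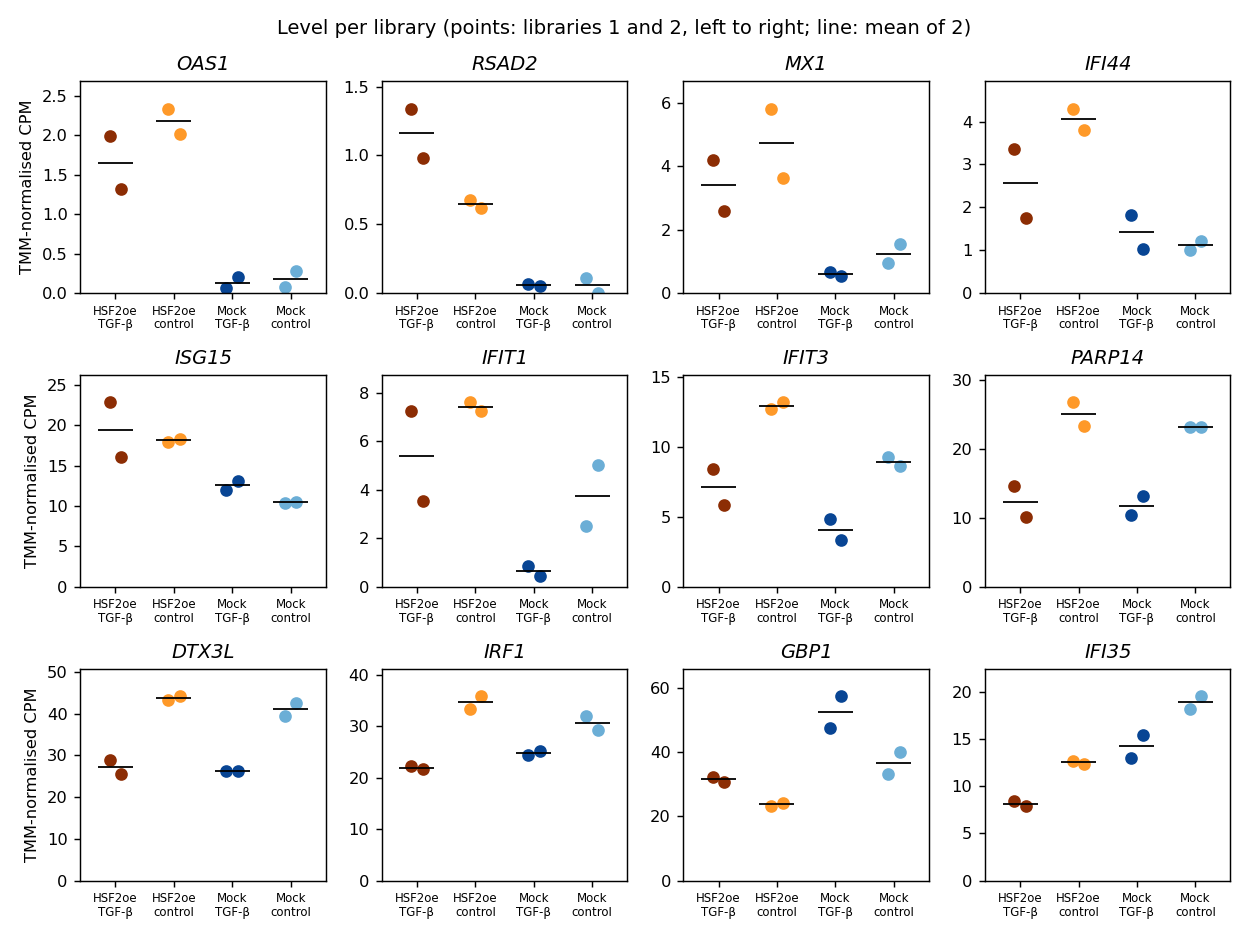
TMM CPM of 12 genes in each library (points, replicate 1 left of replicate 2) and the mean of 2 (line) per group, with linear axes from 0. OAS1, RSAD2, MX1 and ISG15 are higher in all HSF2oe than in all Mock libraries. PARP14 and DTX3L are lower in all TGF-β than in all control libraries, and IFI35 is lower in HSF2oe than in Mock libraries of the same treatment.

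MX1 was higher in HSF2oe cells, and the GTPases GBP1 and GBP2 lower. MX1, a dynamin-like GTPase that traps viral nucleocapsids, had 4.2 and 2.6 CPM in HSF2oe TGF-β, 5.81 and 3.63 CPM in HSF2oe control, 0.651 and 0.541 CPM in Mock TGF-β and 0.937 and 1.53 CPM in Mock control. The lowest HSF2oe library was above the highest Mock library. It was higher in HSF2oe by 2.53 ± 0.42 (adjusted p = 0.0013) with TGF-β, a call that held in every setting, and by 1.91 ± 0.33 (adjusted p = 0.0035) without. Without TGF-β, the call was lost without HSF2oe control 1 (adjusted p = 0.0572). MX2, its neighbour on chromosome 21, had 0.394 to 1.89 CPM and did not pass (1.52 ± 0.52, adjusted p = 0.0524 with TGF-β; 0.58 ± 0.43, adjusted p = 0.416 without). GBP1 (ENSG00000117228.11, chromosome 1, 89051882 to 89065360, minus strand), a guanylate-binding protein known mainly as a target of interferon gamma and IRF1, went the other way. It had 32.4 and 30.7 CPM in HSF2oe TGF-β, 23.2 and 24.2 CPM in HSF2oe control, 47.4 and 57.4 CPM in Mock TGF-β and 33.3 and 40.1 CPM in Mock control. HSF2oe libraries were below Mock libraries of the same treatment, and TGF-β libraries above the controls of their transfection. The HSF2oe over Mock difference was -0.73 ± 0.12 (adjusted p = 0.00119) with TGF-β, held in every setting, and -0.63 ± 0.12 (adjusted p = 0.00559) without. Its call without TGF-β was lost without HSF2oe control 1 (adjusted p = 0.0704) or Mock control 2 (adjusted p = 0.0811). With TGF-β over control, the estimate was 0.41 ± 0.12 (adjusted p = 0.0543) in HSF2oe cells, which missed the threshold, and 0.51 ± 0.12 (adjusted p = 0.011) in Mock cells. The call in Mock cells was lost without Mock TGF-β 2 (adjusted p = 0.152) or Mock control 1 (adjusted p = 0.142). Library totals alone also ended the Mock call (0.25, adjusted p = 0.118). GBP2, which lies beside it on chromosome 1, had 0.778 and 0.554 CPM in HSF2oe TGF-β, 1.12 and 1.52 CPM in HSF2oe control, 1.69 and 3.3 CPM in Mock TGF-β and 2.4 and 3.66 CPM in Mock control. On the log2 scale HSF2oe over Mock gave -1.90 ± 0.42 (adjusted p = 0.00602) with TGF-β and -1.20 ± 0.36 (adjusted p = 0.0434) without. HSF2oe libraries were below Mock libraries of the same treatment. With TGF-β, the call was lost without Mock TGF-β 2 (adjusted p = 0.114). Its call without TGF-β was lost without HSF2oe control 1 (adjusted p = 0.27), HSF2oe control 2 (adjusted p = 0.0786) or Mock control 2 (adjusted p = 0.342). DESeq2 and limma-trend also ended the call without TGF-β (adjusted p = 0.0666 and 0.0616). Its mean fell to 0.666 CPM in HSF2oe TGF-β, against 2.49 CPM in Mock TGF-β.

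The ISG15 group showed both patterns. ISG15 (ENSG00000187608.10, chromosome 1, 1001138 to 1014540, plus strand), the modifier, had 22.8 and 16.1 CPM in HSF2oe TGF-β, 17.9 and 18.3 CPM in HSF2oe control, 12 and 13.1 CPM in Mock TGF-β and 10.4 and 10.5 CPM in Mock control. All 4 HSF2oe libraries were above all 4 Mock libraries. The difference was 0.63 ± 0.16 (adjusted p = 0.012) with TGF-β and 0.79 ± 0.15 (adjusted p = 0.0057) without, and it did not pass between TGF-β and control. The call with TGF-β was lost without HSF2oe TGF-β 1 (adjusted p = 0.159) or Mock TGF-β 1 (adjusted p = 0.0604). Its estimate without HSF2oe TGF-β 1 was 0.37. Without TGF-β, the call was lost without Mock control 2 (adjusted p = 0.051). USP18, which removes ISG15 from proteins and damps interferon receptor signalling, had 4.33 and 3.71 CPM in HSF2oe TGF-β, 5.2 and 5.58 CPM in HSF2oe control, 2.08 and 1.87 CPM in Mock TGF-β and 3.6 and 3.94 CPM in Mock control. Mock TGF-β was the lowest group and did not overlap the others. USP18 was higher in HSF2oe with TGF-β by 1.03 ± 0.23 (adjusted p = 0.00642) and lower with TGF-β in Mock cells, at -0.94 ± 0.23 (adjusted p = 0.0137). Its call with TGF-β was lost without HSF2oe TGF-β 1 (adjusted p = 0.0525) or Mock TGF-β 2 (adjusted p = 0.0628). The call in Mock cells was lost without Mock TGF-β 2 (adjusted p = 0.113) or Mock control 2 (adjusted p = 0.073). HERC6, a HERC-family ligase gene known to attach ISG15 in the mouse, had 2.15 and 1.49 CPM in HSF2oe TGF-β, 3.08 and 3.04 CPM in HSF2oe control, 1.04 and 1.23 CPM in Mock TGF-β and 1.99 and 2.84 CPM in Mock control. Mock TGF-β libraries were below both Mock controls. Its change with TGF-β in Mock cells was -1.08 ± 0.33 (adjusted p = 0.0425). In Mock cells the call was lost without HSF2oe control 1 (adjusted p = 0.0542), HSF2oe control 2 (adjusted p = 0.0555), Mock TGF-β 1 (adjusted p = 0.157), Mock TGF-β 2 (adjusted p = 0.131) or Mock control 2 (adjusted p = 0.256). DESeq2 and a fit to the 4 Mock libraries ended it as well (adjusted p = 0.0868 and 0.0668). HERC5, which lies beside it and attaches ISG15 in human cells, had 1 and 2 counts in HSF2oe TGF-β, 0 and 6 in HSF2oe control, none in Mock TGF-β and 0 and 6 in Mock control.

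IFIT genes encode proteins that bind foreign RNA and stall its translation, and they lie in a row on chromosome 10. IFIT1 (ENSG00000185745.10, chromosome 10, 89392546 to 89406487, plus strand) had 7.25 and 3.54 CPM in HSF2oe TGF-β, 7.61 and 7.26 CPM in HSF2oe control, 0.846 and 0.443 CPM in Mock TGF-β and 2.51 and 5.02 CPM in Mock control. Both Mock TGF-β libraries were below 1 CPM and both below every other library. HSF2oe over Mock came to 3.13 ± 0.48 (adjusted p = 0.000722) with TGF-β, held in every setting, and 0.96 ± 0.33 (adjusted p = 0.0757) without, which missed the threshold. For TGF-β against control it was -0.44 ± 0.32 (adjusted p = 0.512) in HSF2oe cells and -2.61 ± 0.49 (adjusted p = 0.00271) in Mock cells. Its call in Mock cells was lost without Mock TGF-β 2 (adjusted p = 0.0508). IFIT3, which stabilises IFIT1, had 8.47 and 5.88 CPM in HSF2oe TGF-β, 12.7 and 13.2 CPM in HSF2oe control, 4.82 and 3.35 CPM in Mock TGF-β and 9.26 and 8.68 CPM in Mock control. TGF-β libraries were below the controls of their transfection in both. The TGF-β effect was -0.84 ± 0.19 (adjusted p = 0.0122) in HSF2oe cells and -1.15 ± 0.21 (adjusted p = 0.00243) in Mock cells, the second held in every setting. The call in HSF2oe cells was lost without HSF2oe TGF-β 2 (adjusted p = 0.118), HSF2oe control 1 (adjusted p = 0.0574) or HSF2oe control 2 (adjusted p = 0.0687). For HSF2oe against Mock the estimate was 0.84 ± 0.22 (adjusted p = 0.0145) with TGF-β and 0.54 ± 0.18 (adjusted p = 0.0745) without. With TGF-β, the call was lost without HSF2oe TGF-β 1 (adjusted p = 0.155) or Mock TGF-β 2 (adjusted p = 0.164). IFIT2 had 3.36 and 2.43 CPM in HSF2oe TGF-β, 5.14 and 6.08 CPM in HSF2oe control, 2.34 and 1.48 CPM in Mock TGF-β and 3.3 and 3.21 CPM in Mock control. The HSF2oe control libraries were the highest, above all others. TGF-β over control in HSF2oe cells was -0.94 ± 0.24 (adjusted p = 0.0273) and HSF2oe over Mock without TGF-β 0.79 ± 0.24 (adjusted p = 0.0454). Its call in HSF2oe cells was lost without HSF2oe TGF-β 2 (adjusted p = 0.203), HSF2oe control 1 (adjusted p = 0.0687) or HSF2oe control 2 (adjusted p = 0.173). The call without TGF-β was lost without HSF2oe control 1 (adjusted p = 0.129), HSF2oe control 2 (adjusted p = 0.191), Mock control 1 (adjusted p = 0.127) or Mock control 2 (adjusted p = 0.215). DESeq2 and limma-trend ended the second call too (adjusted p = 0.0996 and 0.0711). Of its exonic bases, 13.6% are shared with other genes. IFIT5 passed no test, with levels between 9.34 and 14.8 CPM.

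The PARP9-DTX3L pair and related PARP genes were lower with TGF-β and close to even between transfections. PARP9 is a macrodomain protein and DTX3L its ubiquitin ligase partner; PARP14 is a mono-ADP-ribosyltransferase. PARP14 (ENSG00000173193.15, chromosome 3, 122680839 to 122730840, plus strand) had 14.7 and 10.1 CPM in HSF2oe TGF-β, 26.8 and 23.4 CPM in HSF2oe control, 10.4 and 13.2 CPM in Mock TGF-β and 23.2 and 23.3 CPM in Mock control. Each TGF-β library was well below each control library. With TGF-β over control, the estimate was -1.01 ± 0.17 (adjusted p = 0.00178) in HSF2oe cells and -0.98 ± 0.17 (adjusted p = 0.00177) in Mock cells, and both calls held in every setting. DTX3L (ENSG00000163840.10, chromosome 3, 122564338 to 122575203, plus strand) had 28.8 and 25.6 CPM in HSF2oe TGF-β, 43.4 and 44.2 CPM in HSF2oe control, 26.3 and 26.3 CPM in Mock TGF-β and 39.4 and 42.7 CPM in Mock control. Its TGF-β and control libraries did not overlap in either transfection. The change was -0.69 ± 0.10 (adjusted p = 0.00078) in HSF2oe cells and -0.64 ± 0.10 (adjusted p = 0.00091) in Mock cells, held in every setting. PARP9 had 15.3 and 11.4 CPM in HSF2oe TGF-β, 20.6 and 24.2 CPM in HSF2oe control, 11.2 and 12.1 CPM in Mock TGF-β and 17 and 23.8 CPM in Mock control. All TGF-β libraries were below all controls. The change was -0.74 ± 0.17 (adjusted p = 0.0162) in HSF2oe cells and -0.81 ± 0.18 (adjusted p = 0.0085) in Mock cells. In HSF2oe cells the call was lost without HSF2oe TGF-β 2 (adjusted p = 0.15) or HSF2oe control 2 (adjusted p = 0.129). Its call in Mock cells was lost without Mock TGF-β 1 (adjusted p = 0.052) or Mock control 2 (adjusted p = 0.0947). PARP12, a PARP family member of the same kind, had 16.8 and 11.5 CPM in HSF2oe TGF-β, 18.8 and 18.4 CPM in HSF2oe control, 14.1 and 11.8 CPM in Mock TGF-β and 20.6 and 18.5 CPM in Mock control. TGF-β libraries were below the controls of their transfection. It was lower with TGF-β in Mock cells, at -0.60 ± 0.17 (adjusted p = 0.0295), and -0.38 ± 0.16 (adjusted p = 0.2) in HSF2oe cells missed the threshold. The call in Mock cells was lost without Mock TGF-β 2 (adjusted p = 0.222) or Mock control 1 (adjusted p = 0.156). HSF2oe over Mock lay between -0.07 and 0.20 for these 4 genes in either treatment, and none passed.

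Among transcription factors, IRF1 (ENSG00000125347.15, chromosome 5, 132440440 to 132508719, minus strand), the activator that interferon gamma induces, had 22.2 and 21.7 CPM in HSF2oe TGF-β, 33.4 and 35.8 CPM in HSF2oe control, 24.4 and 25.2 CPM in Mock TGF-β and 31.9 and 29.3 CPM in Mock control. TGF-β libraries were below the controls of their transfection in both. The change was -0.65 ± 0.10 (adjusted p = 0.00119) in HSF2oe cells, held in every setting, and -0.30 ± 0.10 (adjusted p = 0.0764) in Mock cells, which missed the threshold. IRF1 shares 22.9% of its exonic bases with other genes, an antisense gene among them, and the counting did not use strand. STAT2, which joins IRF9 in the interferon-activated complex, had 49.7 and 51.3 CPM in HSF2oe TGF-β, 55.3 and 53.9 CPM in HSF2oe control, 62.8 and 69.5 CPM in Mock TGF-β and 62 and 72.1 CPM in Mock control. HSF2oe libraries were below Mock libraries. The difference was -0.39 ± 0.10 (adjusted p = 0.0174) with TGF-β and -0.30 ± 0.10 (adjusted p = 0.0757) without. With TGF-β, the call was lost without HSF2oe TGF-β 1 (adjusted p = 0.129), HSF2oe TGF-β 2 (adjusted p = 0.0576) or Mock TGF-β 2 (adjusted p = 0.149). It also missed the threshold with library totals alone (-0.20, adjusted p = 0.179). IRF7, the factor that drives interferon alpha genes, had 7.03 and 4.22 CPM in HSF2oe TGF-β, 7.45 and 4.87 CPM in HSF2oe control, 4.56 and 4.28 CPM in Mock TGF-β and 3.6 and 3.18 CPM in Mock control. Without TGF-β both HSF2oe libraries were above both Mock libraries. The difference there was 0.86 ± 0.26 (adjusted p = 0.0464). Its call without TGF-β was lost without HSF2oe control 1 (adjusted p = 0.396), Mock control 1 (adjusted p = 0.0933) or Mock control 2 (adjusted p = 0.241). Its estimate without HSF2oe control 1 was 0.53. DESeq2, a stricter count filter and limma-trend on the deposited log2 CPM also ended that call (adjusted p = 0.0534, 0.051 and 0.0594). IRF9 passed no test (1.24 to 3.92 CPM), and 42.2% of its exonic bases are shared with another gene.

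Of the 4 sensors of viral RNA and their helpers, DDX60 and IFIH1 passed a test. DDX60, a helicase that aids RIG-I, had 2.86 and 2.13 CPM in HSF2oe TGF-β, 5.97 and 4.65 CPM in HSF2oe control, 2.28 and 3.99 CPM in Mock TGF-β and 4.91 and 5.5 CPM in Mock control. Its HSF2oe TGF-β libraries were below both HSF2oe controls. For TGF-β against control it was -1.07 ± 0.26 (adjusted p = 0.0204) in HSF2oe cells. The call in HSF2oe cells was lost without HSF2oe TGF-β 2 (adjusted p = 0.143) or HSF2oe control 1 (adjusted p = 0.166). IFIH1, which encodes the sensor MDA5, had 2.49 and 2.56 CPM in HSF2oe TGF-β, 3.6 and 2.05 CPM in HSF2oe control, 0.977 and 1.28 CPM in Mock TGF-β and 1.99 and 1.42 CPM in Mock control. HSF2oe libraries were above Mock libraries in both treatments. With TGF-β the difference was 1.14 ± 0.37 (adjusted p = 0.0405). With TGF-β, the call was lost without HSF2oe TGF-β 1 (adjusted p = 0.111), HSF2oe TGF-β 2 (adjusted p = 0.0885), Mock TGF-β 1 (adjusted p = 0.153) or Mock TGF-β 2 (adjusted p = 0.105). DESeq2 also ended that call (adjusted p = 0.0557). DDX58 (RIG-I) and DHX58 (LGP2) passed no test, at 0.443 to 1.12 CPM and 0.725 to 2.5 CPM. DDX58 shares 43.2% of its exonic bases with another gene.

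The IFITM genes encode membrane proteins that block virus entry, and as near-identical copies they may exchange reads, so their values are uncertain. IFITM2 had 3.98 and 4.05 CPM in HSF2oe TGF-β, 4.85 and 6.82 CPM in HSF2oe control, 6.32 and 6.99 CPM in Mock TGF-β and 9.48 and 10.8 CPM in Mock control. HSF2oe libraries were below Mock libraries of the same treatment. Against Mock, HSF2oe differed by -0.73 ± 0.20 (adjusted p = 0.0206) with TGF-β and -0.79 ± 0.18 (adjusted p = 0.0134) without. Its call with TGF-β was lost without HSF2oe TGF-β 1 (adjusted p = 0.105), HSF2oe TGF-β 2 (adjusted p = 0.0595) or Mock TGF-β 2 (adjusted p = 0.131). The call without TGF-β was lost without HSF2oe control 1 (adjusted p = 0.164) or Mock control 2 (adjusted p = 0.124). Library totals alone also ended the call with TGF-β (adjusted p = 0.0553). TGF-β over control in Mock cells was -0.60 ± 0.19 (adjusted p = 0.0481). In Mock cells the call was lost without Mock TGF-β 1 (adjusted p = 0.187), Mock TGF-β 2 (adjusted p = 0.13), Mock control 1 (adjusted p = 0.0877) or Mock control 2 (adjusted p = 0.219). DESeq2 also ended it (adjusted p = 0.0965). IFITM3 had 114 and 118 CPM in HSF2oe TGF-β, 112 and 130 CPM in HSF2oe control, 127 and 136 CPM in Mock TGF-β and 153 and 160 CPM in Mock control. HSF2oe control libraries were below both Mock controls. The difference was -0.38 ± 0.10 (adjusted p = 0.028). Its call without TGF-β was lost without HSF2oe control 1 (adjusted p = 0.279), Mock control 1 (adjusted p = 0.0655) or Mock control 2 (adjusted p = 0.177). Library totals alone also ended it (adjusted p = 0.0836). IFITM1 and BST2, which tethers virus particles to the cell surface, passed no test. BST2 had 0.651 to 1.42 CPM. IFITM1 reached at most 0.868 CPM and had no count in Mock TGF-β 1.

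IFI genes are named for their induction by interferon, and several have no settled function. IFI6, a mitochondrial and endoplasmic reticulum protein that limits cell death, had 39.3 and 40.7 CPM in HSF2oe TGF-β, 41 and 48.6 CPM in HSF2oe control, 17.1 and 30.8 CPM in Mock TGF-β and 20.9 and 31.3 CPM in Mock control. All HSF2oe libraries were above all Mock libraries. The difference was 0.73 ± 0.22 (adjusted p = 0.0329) with TGF-β and 0.77 ± 0.21 (adjusted p = 0.0333) without. The call with TGF-β was lost without HSF2oe TGF-β 1 (adjusted p = 0.0789), HSF2oe TGF-β 2 (adjusted p = 0.0767) or Mock TGF-β 1 (adjusted p = 0.216). Without TGF-β, the call was lost without HSF2oe control 1 (adjusted p = 0.0921), HSF2oe control 2 (adjusted p = 0.143) or Mock control 1 (adjusted p = 0.195). Without Mock TGF-β 1 and Mock TGF-β 2 the first estimate was 0.38 and 1.22, and without Mock control 1 the second was 0.51. DESeq2 ended both calls (adjusted p = 0.13 and 0.159), and 23.1% of its exonic bases are shared with another gene. IFI44 had 3.36 and 1.75 CPM in HSF2oe TGF-β, 4.3 and 3.81 CPM in HSF2oe control, 1.82 and 1.03 CPM in Mock TGF-β and 1.01 and 1.22 CPM in Mock control. HSF2oe and Mock libraries overlapped with TGF-β but not without. The HSF2oe over Mock difference was 1.85 ± 0.34 (adjusted p = 0.00464) without TGF-β, held in every setting, and 0.89 ± 0.37 (adjusted p = 0.104) with it, which missed the threshold. IFI44L, its neighbour on chromosome 1, had 2.96 and 0.597 CPM in HSF2oe TGF-β, 2.83 and 2.17 CPM in HSF2oe control, 0.326 and 0.344 CPM in Mock TGF-β and 0.674 and 0.851 CPM in Mock control. HSF2oe TGF-β 1 was just above the HSF2oe controls, and HSF2oe TGF-β 2 far below them, though above both Mock TGF-β libraries. On the log2 scale HSF2oe over Mock gave 2.44 ± 0.69 (adjusted p = 0.0229) with TGF-β and 1.69 ± 0.53 (adjusted p = 0.0539) without. Its call with TGF-β was lost without HSF2oe TGF-β 1 (adjusted p = 0.46), Mock TGF-β 1 (adjusted p = 0.0802) or Mock TGF-β 2 (adjusted p = 0.123). Without HSF2oe TGF-β 1 the estimate was 0.84. IFI35, a partner of NMI in innate signalling, had 8.4 and 7.89 CPM in HSF2oe TGF-β, 12.7 and 12.3 CPM in HSF2oe control, 13 and 15.4 CPM in Mock TGF-β and 18.2 and 19.5 CPM in Mock control. HSF2oe libraries were below Mock libraries of the same treatment. HSF2oe over Mock came to -0.80 ± 0.14 (adjusted p = 0.00138) with TGF-β, held in every setting, and -0.59 ± 0.13 (adjusted p = 0.00962) without. The call without TGF-β was lost without HSF2oe control 1 (adjusted p = 0.0725), HSF2oe control 2 (adjusted p = 0.0557) or Mock control 2 (adjusted p = 0.0987). The TGF-β effect was -0.62 ± 0.13 (adjusted p = 0.0103) in HSF2oe cells and -0.41 ± 0.13 (adjusted p = 0.0528) in Mock cells, which missed the threshold. In HSF2oe cells the call was lost without HSF2oe TGF-β 2 (adjusted p = 0.0818) or HSF2oe control 1 (adjusted p = 0.0791). IFI27 (0.187 to 1.11 CPM) and EPSTI1 (2.47 to 7.38 CPM) passed no test.

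Of the other effectors, SAMD9 and SAMD9L are neighbours on chromosome 7 that restrict poxviruses. SAMD9 had 58.3 and 43.1 CPM in HSF2oe TGF-β, 60.4 and 42 CPM in HSF2oe control, 34.6 and 35.7 CPM in Mock TGF-β and 27.5 and 33.3 CPM in Mock control. HSF2oe libraries were above all Mock libraries. The difference was 0.53 ± 0.17 (adjusted p = 0.0432) with TGF-β and 0.75 ± 0.17 (adjusted p = 0.0134) without. Its call with TGF-β was lost without HSF2oe TGF-β 1 (adjusted p = 0.336), Mock TGF-β 1 (adjusted p = 0.133) or Mock TGF-β 2 (adjusted p = 0.14). The call without TGF-β was lost without HSF2oe control 1 (adjusted p = 0.188) or Mock control 1 (adjusted p = 0.0834). The estimates were 0.31 without HSF2oe TGF-β 1 and 0.46 without HSF2oe control 1. On the deposited log2 CPM, limma-trend also ended the call with TGF-β (adjusted p = 0.0503). SAMD9L had 17.3 and 13.9 CPM in HSF2oe TGF-β, 25.4 and 20.1 CPM in HSF2oe control, 16.1 and 18.6 CPM in Mock TGF-β and 19 and 20.9 CPM in Mock control. HSF2oe TGF-β libraries were below both HSF2oe controls. TGF-β over control in HSF2oe cells was -0.54 ± 0.15 (adjusted p = 0.0394). In HSF2oe cells the call was lost without HSF2oe TGF-β 2 (adjusted p = 0.287) or HSF2oe control 1 (adjusted p = 0.359). Its estimate without HSF2oe control 1 was -0.35. A fit to the 4 HSF2oe libraries alone also ended it (adjusted p = 0.0805). EIF2AK2, the kinase PKR that shuts down translation, had 52.2 and 46.4 CPM in HSF2oe TGF-β, 61.5 and 58.3 CPM in HSF2oe control, 42.4 and 41.4 CPM in Mock TGF-β and 51.9 and 55.4 CPM in Mock control. TGF-β libraries were below the controls of their transfection. The change was -0.36 ± 0.10 (adjusted p = 0.029) in Mock cells and -0.28 ± 0.10 (adjusted p = 0.11) in HSF2oe cells, which missed the threshold. Its call in Mock cells was lost without Mock TGF-β 1 (adjusted p = 0.0862), Mock TGF-β 2 (adjusted p = 0.157), Mock control 1 (adjusted p = 0.0684) or Mock control 2 (adjusted p = 0.155). With library totals alone the Mock estimate was -0.62. XAF1, a partner of the apoptosis inhibitor XIAP, had 2.27 and 2.3 CPM in HSF2oe TGF-β, 2.18 and 2.54 CPM in HSF2oe control, 3.97 and 4.62 CPM in Mock TGF-β and 2.1 and 3.29 CPM in Mock control. With TGF-β both HSF2oe libraries were below both Mock libraries. The difference was -0.91 ± 0.27 (adjusted p = 0.027). The call with TGF-β was lost without HSF2oe TGF-β 1 (adjusted p = 0.128), HSF2oe TGF-β 2 (adjusted p = 0.0789) or Mock TGF-β 2 (adjusted p = 0.164). Library totals alone also ended it (adjusted p = 0.0522), and 38.3% of its exonic bases are shared with another gene. TRIM22 (0.246 to 1.12 CPM) and the exonuclease gene ISG20 (0.28 to 1.27 CPM) passed no test.

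Did TGF-β act differently in the 2 transfections? The difference of both TGF-β effects passed the test for none of the 45 genes, and for 0 of all 16008 genes (0%). At an unadjusted p below 0.05 there were 2 of the 45 genes, IFIT1 and IRF1, and 977 of all genes. DESeq2 called none of the genes and 24 of all genes. IFIT1 had the smallest p, with an effect in HSF2oe minus Mock cells of 2.17 ± 0.60 (95% interval 0.87 to 3.47, adjusted p = 0.615). IRF1 had -0.35 ± 0.15 (adjusted p = 0.805). IFIT1, IFIT2, IFIT3, USP18 and GBP1 each passed in opposite directions in a TGF-β and an HSF2oe comparison, but those comparisons share libraries and are not independent.

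The libraries of a group were further apart for these genes in HSF2oe TGF-β than elsewhere. There, replicate 1 was higher for 35 of the 45 genes, with a median log2 difference of 0.43, against 0.01 for all genes. In HSF2oe control it was higher for 24 of 45 (median 0.03). In Mock TGF-β it was higher for 20 of 45 (median -0.07) and in Mock control for 13 of 45 (median -0.16). The median absolute difference was 0.44, 0.22, 0.25 and 0.28 in that order of groups, and 0.18, 0.17, 0.20 and 0.17 for all genes. HSF2 itself was at 780 and 489 CPM in HSF2oe TGF-β 1 and 2 and at 937 and 616 CPM in HSF2oe control 1 and 2. Its part in the spread was not tested.

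**Figure D5:**
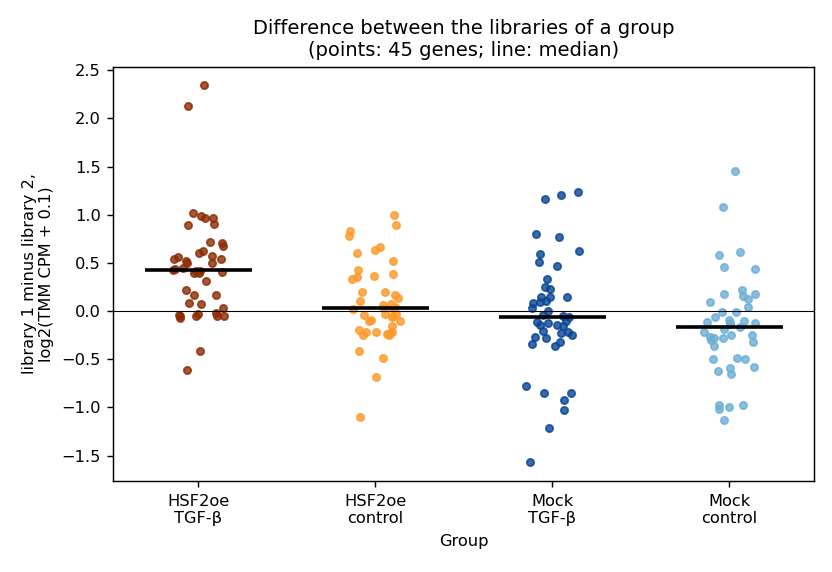
Difference between libraries 1 and 2 of each group in log2(TMM CPM + 0.1) for the 45 tested genes (points), with the median as a line and 0 marked. Most points of HSF2oe TGF-β lie above 0, 35 of 45 by the TMM log2 values, and most of those of Mock control lie below it.

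Many of the genes lie side by side: 24 fall in 10 clusters with gaps below 100 kb. Neighbours did not always pass the same tests. OAS1, OAS2 and OAS3 on chromosome 12 were each higher in HSF2oe in both treatments, and PARP9 and DTX3L on chromosome 3 each lower with TGF-β in both transfections. MX1 passed where MX2 did not, RSAD2 where CMPK2 did not, and SAMD9 and SAMD9L passed in different comparisons. No difference between such neighbours was tested.

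The interferon genes looked up had few or no counts, with IFNA1 the only interferon alpha gene among them. IFNA1, IFNK, IFNG, IFNL1, IFNL2 and IFNL3 had no count in any library, which allows up to 0.172 CPM in the shallowest. IFNB1 had 3 counts, all in HSF2oe control 2, and IFNE 0 to 10 counts. Of 24 genes named for ligands, receptors and signalling, 14 could be tested. With HSF2oe, 1 was higher and 3 lower with TGF-β, where 9.6% and 11.9% of all genes were, and 1 higher and 1 lower without, where 4.88% and 7.22% were. With TGF-β, 1 was higher in each transfection and none was lower, where 4.45% of all genes in HSF2oe and 7.32% in Mock cells were higher. IFNAR1 (41.5 to 58.5 CPM), IFNAR2 (1.07 to 2.44 CPM) and TYK2 (83.2 to 97.1 CPM) passed no test.

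JAK1, a kinase of the receptor, was lower in HSF2oe than in Mock cells with TGF-β, at -0.40 ± 0.10 (adjusted p = 0.0117), lost without HSF2oe TGF-β 1 (0.0952), without Mock TGF-β 2 (0.127) and with library totals alone (0.144). SOCS3, a feedback inhibitor of cytokine receptors, had 61.9 and 46.3 CPM in HSF2oe TGF-β, 40.2 and 35.7 CPM in HSF2oe control, 38.9 and 30.6 CPM in Mock TGF-β and 27.4 and 24.2 CPM in Mock control. HSF2oe libraries were above Mock libraries of the same treatment. The difference was 0.65 ± 0.15 with TGF-β (adjusted p = 0.0082), lost without HSF2oe TGF-β 1 (0.0952) or Mock TGF-β 2 (0.102). Without TGF-β it was 0.56 ± 0.15 (adjusted p = 0.0274), lost without HSF2oe control 1 (0.206), Mock control 1 (0.0502) or Mock control 2 (0.201).

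Of 18 genes for nucleic acid sensing upstream of interferon, 15 could be tested. HSF2oe cells had 2 higher and 3 lower with TGF-β (9.6% and 11.9% of all genes), and 1 higher and 1 lower without (4.88% and 7.22%). With TGF-β, 2 were lower in HSF2oe cells and 1 in Mock cells (3.82% and 6.5% of all genes). TICAM1, the adaptor of TLR3, had 44.7 and 41.6 CPM in HSF2oe TGF-β, 39.9 and 40 CPM in HSF2oe control, 34.6 and 30.6 CPM in Mock TGF-β and 31.2 and 29.6 CPM in Mock control. Its HSF2oe libraries were all above its Mock libraries. The HSF2oe over Mock difference was 0.41 ± 0.10 (adjusted p = 0.0133) with TGF-β, lost without HSF2oe TGF-β 1 (0.0941) or Mock TGF-β 2 (0.141), and 0.39 ± 0.10 (adjusted p = 0.0226) without, lost without any 1 of the 4 control libraries (0.0659 to 0.172). CGAS, the sensor of cytosolic DNA, was higher in HSF2oe than in Mock cells with TGF-β, by 0.55 ± 0.16 (adjusted p = 0.0258), lost without HSF2oe TGF-β 1 (0.179) or Mock TGF-β 2 (0.223). STING1, the adaptor of cytosolic DNA sensing, had 31.9 and 29.3 CPM in HSF2oe TGF-β, 33.5 and 33.7 CPM in HSF2oe control, 47.3 and 46.1 CPM in Mock TGF-β and 45.1 and 46.6 CPM in Mock control. All HSF2oe libraries were below all Mock libraries. The difference was -0.61 ± 0.10 with TGF-β (adjusted p = 0.000922), held in every setting. Without TGF-β it was -0.45 ± 0.09 (adjusted p = 0.00895), lost without HSF2oe control 1 (0.0897) or Mock control 2 (0.086). TLR3, a sensor of double-stranded RNA, had 0.591 and 0.725 CPM in HSF2oe TGF-β and 1.89 and 2.07 CPM in Mock TGF-β. The groups did not overlap. Its difference was -1.60 ± 0.35 (adjusted p = 0.00627), lost without HSF2oe TGF-β 1 (0.0635). TRIM25, which activates RIG-I, was lower with TGF-β, at -0.53 ± 0.10 in HSF2oe cells (adjusted p = 0.00458), lost without HSF2oe TGF-β 2 (0.0727). In Mock cells the change was -0.46 ± 0.10 (adjusted p = 0.00825), lost without Mock TGF-β 2 (0.0527) or Mock control 2 (0.0655).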

How the data were processed

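RNA was sequenced from polyadenylated RNA of 8 HS578T cultures with a stranded mRNA kit, per the labels' protocols. The authors deposited gene counts, made per the file headers with featureCounts 2.0.1 on GENCODE release 38 genes, with no strand option, so a gene and its antisense or overlapping partner cannot be told apart. The submitters' processing notes list STAR 2.7.9a, Subread 2.0.1, edgeR 3.34.1 and GRCh38. A second deposited table gives log2 CPM values of 13169 genes; these hold 34 of the 46 genes described here, so the counts were the main data. Samples were grouped by their titles.

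Counts were tested with edgeR 4.0.16 (R 4.3.3): filterByExpr by group kept 16008 genes, libraries were scaled with TMM factors, and all 8 entered 1 quasi-likelihood fit with 4 group means (common biological coefficient of variation 9.91%, 4 residual and 9.21 prior degrees of freedom). The 2-sided p-values were adjusted by Benjamini-Hochberg over the 16008 genes, with a threshold of 0.05. Standard errors restate the test and, at few counts, can lie below counting error. Counting intervals of ratios are exact and, like the limit of 3 counts, cover counting error only. Total counts ran from 17427645 to 34336107. Chi-square per degree of freedom between the libraries of a group was 12.5 to 26.8, well above sampling noise, so none looked like a duplicate. Alternatives were DESeq2 1.42.0, its size factors, library totals alone, no count filter or a stricter one (10 counts in every library), the 4 compared libraries alone, a replicate block, limma-trend (limma 3.58.1) on the deposited log2 CPM, and each library left out.

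The members and gene lists were chosen with earlier results of these data known. All members past the threshold in any comparison are named, with the other members by their ranges. Of the further lists, the genes past the threshold with the 4 smallest p in a comparison, and JAK1, TYK2, IFNAR1 and IFNAR2, were taken; only some are described, and some values are not reported here. Promoter windows are from RefSeq.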

Additional observations from a re-analysis of the deposited data

How the results depend on the processing

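All 867 alternative values of the calls on the interferon-stimulated genes kept their direction, and 742 stayed past the threshold. These are refits of the same libraries for calls already past it. Some leave out a library outside the comparison. Calls that held in every setting that tested the gene were 3 of 9 for TGF-β in HSF2oe cells (DTX3L, IRF1 and PARP14), 3 of 11 for TGF-β in Mock cells (DTX3L, IFIT3 and PARP14), 5 of 19 for HSF2oe with TGF-β (GBP1, IFI35, IFIT1, MX1 and OAS1) and 2 of 16 for HSF2oe without TGF-β (IFI44 and OAS1). Leaving out 1 library gave 3 to 12, 5 to 12, 7 to 20 and 3 to 20 calls in that order, and 0 in each fit of the difference of both TGF-β effects. Library totals alone gave 14 and 19 for TGF-β in HSF2oe and Mock cells. With no filter on low counts the difference of both TGF-β effects gave 1 call, IFIT1. With 2 libraries per group and counts of 0 to 5 in some Mock libraries, the size of the OAS1, OASL and RSAD2 differences is uncertain. Their counting intervals do not bound it, since they leave out the spread between libraries. OASL, for example, had 27 and 2 counts in HSF2oe TGF-β 1 and 2.

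Replicate numbers were shared across groups. Differences of replicate 1 and 2 correlated between groups at 0.05 to 0.16 over genes, all positive but not all above 0.1, and no label ties equal numbers to a shared culture or day, so the numbers were not taken as pairs. A replicate block gave 14 calls in place of 9 for TGF-β in HSF2oe cells, 16 in place of 11 in Mock cells, 20 in place of 19 for HSF2oe with TGF-β, 22 in place of 16 without, and 0 for the difference of both TGF-β effects. The share of all genes called was then 14.8% in place of 8.26%, 20.9% in place of 13.8%, 30.6% in place of 21.5% and 22.6% in place of 12.1%, and 78 genes in place of 0.

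The motif share rose to 86.1% of the genes with a promoter window with 1 or 3 bases allowed between the GAAA repeats as well, against 10.5% of all genes, and was 66.7% against 3.71% with bases before the start alone. For genes of the other interferon lists, alternatives chosen after seeing the data kept the direction of all 65 calls, and 19 calls held in every one.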

Other observations

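A further list of interferon targets outside the 46 genes, with antigen presentation and apolipoprotein L genes among them, held 39 names, of which 32 could be tested. With HSF2oe, 4 were higher and 9 lower with TGF-β (9.6% and 11.9% of all genes), and 2 higher and 7 lower without (4.88% and 7.22%). With TGF-β, 1 was higher and 11 lower in HSF2oe cells (4.45% and 3.82% of all genes), and 2 higher and 11 lower in Mock cells (7.32% and 6.5%). The median log2 fold changes were -0.15 and -0.07 for HSF2oe, and -0.39 and -0.31 for TGF-β, in the same order, and between -0.01 and 0 for all genes. APOL6, an apolipoprotein L family gene, had 13.9 and 13.3 CPM in HSF2oe TGF-β, 32.4 and 43.8 CPM in HSF2oe control, 35 and 38.1 CPM in Mock TGF-β and 61.2 and 69.4 CPM in Mock control. HSF2oe libraries were below Mock libraries of the same treatment, and TGF-β libraries below the controls of their transfection. HSF2oe over Mock was -1.42 ± 0.14 with TGF-β (adjusted p = 6.52e-05) and -0.78 ± 0.13 without (adjusted p = 0.00271). TGF-β over control was -1.48 ± 0.14 in HSF2oe cells (adjusted p = 2.46e-05) and -0.84 ± 0.13 in Mock cells (adjusted p = 0.000858), and all 4 APOL6 calls held in every setting.

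PSMB9, a subunit of the immunoproteasome, had 4.3 and 2.43 CPM in HSF2oe TGF-β, 8.61 and 7.94 CPM in HSF2oe control, 10.4 and 7.97 CPM in Mock TGF-β and 16.7 and 14.6 CPM in Mock control. The HSF2oe TGF-β libraries were the lowest. HSF2oe over Mock with TGF-β was -1.41 ± 0.23 (adjusted p = 0.00116) and TGF-β over control in HSF2oe cells -1.27 ± 0.22 (adjusted p = 0.0031), and both held in every setting. TAP1, which carries peptides to class I molecules, had 68.4 and 63.8 CPM in HSF2oe TGF-β and 104 and 101 CPM in Mock TGF-β, without overlap, a difference of -0.64 ± 0.09 (adjusted p = 0.000553) that held in every setting. LGALS3BP, a secreted glycoprotein, had 128 and 114 CPM in HSF2oe TGF-β and 223 and 224 CPM in Mock TGF-β. Its difference was -0.89 ± 0.10 (adjusted p = 0.000126), held in every setting. SP110, a nuclear body protein, had 4.17 and 4.08 CPM in Mock TGF-β and 8.69 and 10.7 CPM in Mock control, a change of -1.23 ± 0.17 (adjusted p = 0.000286) that held in every setting. With TGF-β, SP110 was higher in HSF2oe than in Mock cells, at 0.67 ± 0.17 (adjusted p = 0.0157), lost without HSF2oe TGF-β 1 (0.068) or Mock TGF-β 2 (0.0958). SP100, PLSCR1 and HELZ2 were also higher there, by 0.33 ± 0.10 (adjusted p = 0.0394), 0.40 ± 0.12 (adjusted p = 0.0334) and 0.55 ± 0.18 (adjusted p = 0.0451), and each call was lost without HSF2oe TGF-β 1 (0.139, 0.258 and 0.426) or Mock TGF-β 1 (0.194, 0.159 and 0.239), among others, the HELZ2 estimate then being 0.24 and 0.38. SP100 and HELZ2 were the genes higher in HSF2oe without TGF-β, by 0.38 ± 0.10 (adjusted p = 0.0297) and 0.79 ± 0.18 (adjusted p = 0.0124), lost without HSF2oe control 1 (0.0967 and 0.148) or Mock control 2 (0.0623 and 0.0955), and for SP100 also without HSF2oe control 2 (0.145) or Mock control 1 (0.2). No test compared the lists.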
